A study of Mus musculus with 4 samples.

Results

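Suprabasal keratinocytes of the mouse cheek were read as the cells of the buccal mucosa slide that had at least 10 transcripts in all, at least 10 transcripts of *Krt4* and *Tgm3* together, and at most 1 transcript of *Itgb4* and *Col17a1* together. The rule was met by 10681 of the 62782 buccal cells with at least 10 transcripts (17.0%), out of 426792 such cells in the whole series. The assay was Xenium, an imaging method in which probes for a set panel of 328 genes are decoded spot by spot on the tissue, and every decoded transcript is given to the cell whose outline contains it. There were 4 slides with sections 5 µm thick cut from fixed, paraffin-embedded tissue: 1 of buccal mucosa, 1 each of unwounded dorsal skin from males and from females, and 1 of male dorsal skin taken 4 days after a wound. The skin slides mix sections of Control mice and of PITX1+ mice, in which doxycycline chow induced a *Pitx1* transgene in the epidermis. The labels do not say which skin section is which. The buccal slide carried unwounded cheek of male and female mice with genotype Control and treatment Vehicle. Per the study's methods, Control mice came from a TRE-*Pitx1*/*Krt5*-rtTA line kept on normal chow, in which the *Krt5* promoter drives the rtTA switch, so the transgene is not induced, but the labels do not say whether the buccal mice carried both transgenes. They also do not tie a section to an animal or a sex, and the age of the mice is not in the labels. The p-values below therefore measure the spread between sections of 1 slide.

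The cheek is lined by a stratified squamous epithelium. Cells divide in the basal layer, which is anchored to the basement membrane by integrins and by collagen XVII, then detach, move outward, enlarge and fill with keratin before they are shed. *Krt4* encodes a keratin of the suprabasal layers of moist epithelia such as mouth and oesophagus, and *Tgm3* a transglutaminase that crosslinks the proteins of the cornified envelope, the hardened shell of the outermost cells. *Itgb4* and *Col17a1* encode parts of the hemidesmosome, the anchor of the basal cell.

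The slide held 67803 cells and 8797668 transcripts at or above a decoding quality of 20, of which 98.3% lay in cells. Chaining cells within 100 µm gave 7 sections of at least 2000 cells, numbered 1 to 7 along the slide, which held 134076 to 2367327 transcripts. Of the suprabasal cells, 10591 lay in these sections and 90 outside them. Section 5 held none among 2449 cells, which allows a share of up to 0.122% by the limit of 3 counts (0.151% by the exact 95% interval), and its leading genes were *Des* of muscle, at 7.90% of its transcripts, and *Vim* of connective tissue, at 7.25%. The other sections held 612, 1189, 2076, 2012, 2460 and 2242 suprabasal cells, in the order 1, 2, 3, 4, 6 and 7. Their share of the section's cells was 10.2% in section 1, 17.7% in section 2, 13.7% in section 3, 21.1% in section 4, 22.7% in section 6 and 19.2% in section 7, with a mean of 17.4% ± 4.70 (SD, n = 6). The smallest and largest shares thus differed by more than 2-fold, and the intervals of sections 1 and 3 lay below those of the others.

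**Figure D1:**
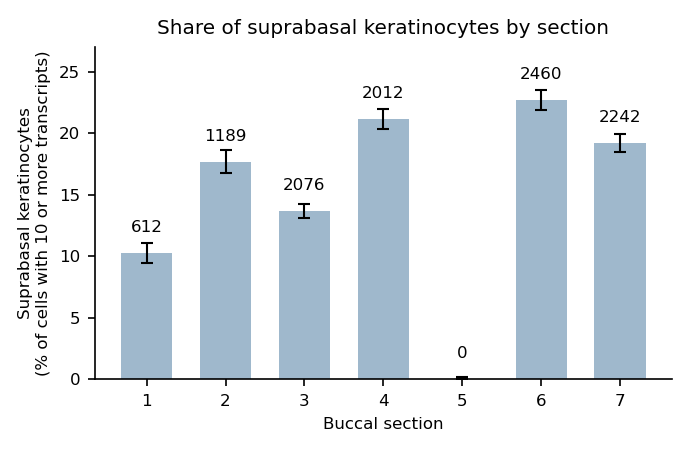
The height of each bar is the share of suprabasal keratinocytes among cells with at least 10 transcripts, in percent, in each of the 7 buccal sections, with 95% exact binomial intervals that cover counting error only and the number of suprabasal cells above the bar. Section 5 holds 0 and the other sections lie between 10.2% and 22.7%.

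A suprabasal cell held a median of 172 transcripts in section 1, 267 in section 2, 359.5 in section 3, 369.5 in section 4, 291 in section 6 and 255 in section 7. *Krt4* made up 63.6% to 68.4% of the transcripts of the pair, no cell passed on *Tgm3* alone, and 0.385% to 1.31% passed on *Krt4* alone. These values chose the cells and are a description. Just inside the limit, 354 cells with 10 or 11 transcripts of the pair had a median of 83 transcripts, against 75 in the 359 cells just outside it with 8 or 9. As CPM, that is with the transcripts of the 324 panel genes outside the rule scaled to a total of 1000000, *Krt78* stood at 12051 inside and 12003 outside, and *Krt5* at 45886 inside and 45766 outside. Cells on either side of the lower limit thus had like levels of these genes. Across the limit on *Itgb4* and *Col17a1* they did not: *Krt78* was at 35386 CPM in the 1476 cells with 1 transcript of them and at 11021 CPM in the 587 cells with 2.

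The label was checked against marker lists. The 12 other suprabasal markers summed to between 274559 and 312920 CPM in the suprabasal cells and to between 20760.3 and 32927 CPM in basal cells of the same sections, taken as cells with at least 5 transcripts of *Itgb4* and *Col17a1* and fewer than 10 of *Krt4* and *Tgm3* (4618 cells in the 7 sections, 16 of them in section 5, which entered no comparison). The 10 other basal markers summed to between 13240 and 19096 CPM in the suprabasal cells and to between 164136 and 256759 CPM in basal cells. The 1 suprabasal marker near 0 was *Ivl*, which encodes involucrin, an early envelope protein, with 6.90 to 12.5 CPM over sections and a transcript in 0.302% of cells. Fibroblast markers summed to 178 to 654 CPM, vascular markers to 41.8 to 162, neural markers to 111 to 415, and muscle and mural markers to 302 to 1027. Immune markers summed to 2999 to 3929 CPM. Among the suprabasal cells, 53.8% held no transcript of any of these other lineages. Salivary and simple epithelium markers, not counted in that share, summed to 698 to 2583 CPM, with a transcript in 33.6% of suprabasal cells. In the basal cells these salivary markers summed to 163 to 25453 CPM, fibroblast markers to 4267 to 12261 and neural markers to 2312 to 4918. The basal cells used as reference thus held transcripts of other lineages.

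The 20 genes with the most transcripts in suprabasal cells took up 64.97% of the transcripts of the 324 genes. They are given by role, as CPM over the 6 sections. Probes differ between genes in number and efficiency, so a rank in counts is not a rank in RNA. Small proline-rich proteins are short proteins that transglutaminases join into the envelope, and 4 of the 20 genes encode them. *Sprr3* led the list with a lowest value of 78507, a median of 84007 and a highest of 103124 CPM. *Sprr2a3* lay between 18284 and 59252 CPM (median 33359.6), *Sprr1a* between 27401 and 48927 (median 39122) and *Sprr1b* between 11445 and 25399.5 (median 18259.9). The order of these genes was not the same in every section: *Sprr2a3* stood above *Sprr1a* in sections 2, 6 and 7 and below it in sections 1, 3 and 4. *Lor*, which encodes loricrin, the main protein of the epidermal envelope, had 50824 to 63867 CPM (median 61742).

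The 5 *Sprr* genes of the panel lie in 1 cluster on chromosome 3. All 5 are among the genes higher in the cells farthest from the basal layer, as described below, beside 37.5% of all genes tested. The stretches of their promoters that hold a short motif are shown, which 3 of the 5 have. In the 250 bases before the gene start in RefSeq (GRCm38.p6), the motif is the AP-1 site TGANTCA, which Fos and Jun proteins bind and whose reverse complement is the same letters. *Sprr1a* held 2 sites and *Sprr1b* and *Sprr2d* held 1 each. They are printed 5′ to 3′ in the direction of the gene with the site in capitals:
*Sprr1a*, chr3:92486011-92486037, minus strand: taactaaagcTGAGTCAgagggtgaac
*Sprr1a*, chr3:92485981-92486007, minus strand: gggaggagggTGAGTCAtaggtgactg
*Sprr1b*, chr3:92438874-92438900, minus strand: gcacctaggaTGAATCAtgtctgacag
*Sprr2d*, chr3:92338937-92338963, plus strand: gagtgctcacTGAGTCAcaggtctcaa
The sites start 146, 116, 111 and 193 bases before the gene start. The motif was present in the windows of 7.82% of all 27025 RefSeq genes and of 13.6% of the 235 panel genes matched by symbol. A match is a run of letters and says nothing of binding. The letters TAATCC or their reverse complement, which PITX proteins bind, were found in none of the 5 windows and in those of 7.21% of all genes.

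*Krt78*, a type II keratin of differentiating epithelium, had 39006 to 56024 CPM (median 55187), and *Krt6a*, a keratin raised by stress and present in resting mouth, 6672 to 24926 (median 17352). *Slpi*, a secreted inhibitor of leukocyte elastase found in saliva, was second of all genes with 68499 to 85531 CPM (median 77691). *Slpi* had a transcript in 70.4% of suprabasal cells and *Sprr3* in 83.5%, while *Dsg1a* had one in 92.4%. Desmosomal cadherins, which join keratinocytes to each other, gave 3 of the 20 genes. *Dsc1* had 19429 to 34525 CPM (median 29483), *Dsg1a* 24004 to 29569 (median 26393) and *Dsc2* 10461 to 21773 (median 14710.4). The 2 desmocollins differed in which sections were high: section 1 had the lowest *Dsc1* and the second highest *Dsc2*. The gap junction gene *Gja1* had 13643 to 21009 CPM (median 17493).

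The rest of the 20 had other roles. *Mt4*, a metallothionein of stratified epithelium, had 36275 to 50517 CPM (median 43315). *Fabp5*, which carries fatty acids, had 16085 to 25397 (median 21959), and *Crabp2*, which carries retinoic acid to its receptors, 17662 to 22502 (median 20949). *Gsdmc*, a member of the gasdermin family of pore-forming proteins, had 14689 to 31625 (median 21399). *Arg1*, the arginase of the urea cycle that also occurs in macrophages and keratinocytes, had 16724 to 24601 (median 20818) but a transcript in 42.4% of cells, the lowest share among the 20 genes. *Arf6*, a small GTPase of membrane traffic, varied least, with 15743 to 18635 (median 16563). *Barx2*, a homeobox transcription factor, had 12292 to 14789 (median 13740.0). *Chil3*, a chitinase-like protein, varied most, with 3505 CPM in section 1 and 26871 in section 2 (median 14731). The 2 oral transcription factors lay lower, with 3151 to 4778 CPM for *Sox2* and 776 to 1307 CPM for *Pitx1*.

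**Figure D2:**
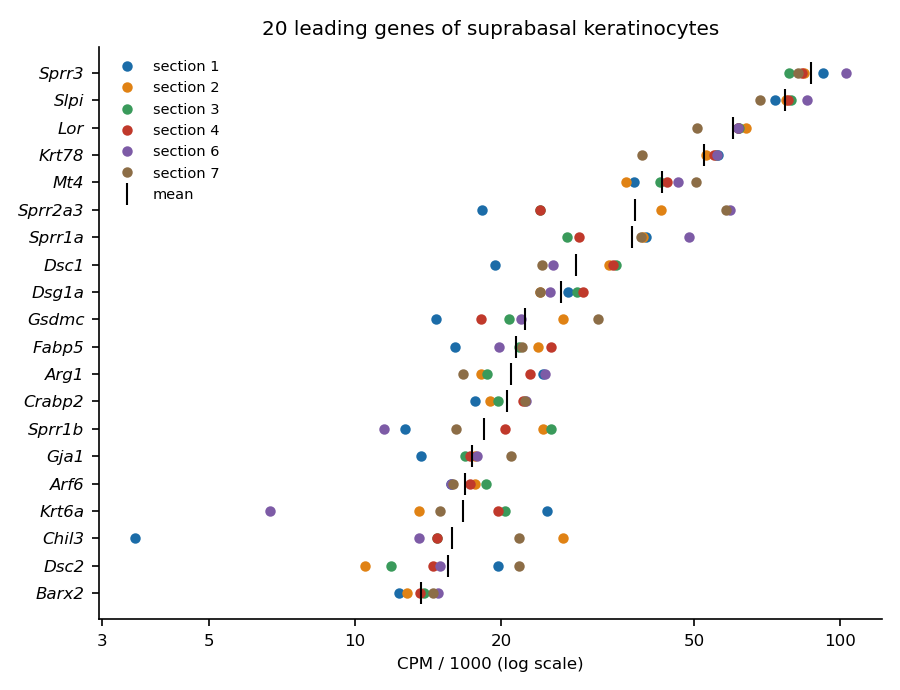
Levels of the 20 leading genes in suprabasal keratinocytes, in CPM divided by 1000, on a log axis, with a point for each of the 6 sections and a bar for their mean. *Sprr3* and *Slpi* lie at the top in every section, and *Chil3*, *Krt6a* and *Sprr2a3* have the widest spread.

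Over the 155 genes with at least 500 transcripts in suprabasal cells, the highest section was a median of 1.77 times the lowest, and for 99 genes it was less than 2 times. It was over 5 times for 12 genes. *S100a8*, which encodes a calcium-binding protein of neutrophils and stressed keratinocytes, had 841 CPM in section 3 and 1086 in section 7 and 46.9 to 189 in the others. *Plac8* had 760.1 CPM in section 7 and 22.9 to 94.6 elsewhere. *Krt16*, the stress partner of *Krt6a*, had 2516 CPM in section 6, which was also lowest for *Krt6a*, and 7842 to 13563 elsewhere. *Krt15*, a basal keratin, had 478 CPM in section 1 and 1369 to 3291 elsewhere, and *Krt1*, a keratin of the suprabasal epidermis, 10.8 to 279 in all. These genes were chosen after their values were seen. Whether such differences follow the animal, the sex or the place of the cut was not tested, since the labels give none of them per section.

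Transcripts of different genes sat in different parts of the cell. Over sections, 17.9% to 22.3% of the transcripts of suprabasal cells lay over the nucleus, while the share by gene ran from 8.17% for *Sprr1a* to 90.8% for *Mt3*, a metallothionein, with a median of 30.7% over the 155 genes. *Sprr3* had 9.33% ± 0.600 (SD, n = 6) of its transcripts over the nucleus, *Slpi* 10.6% ± 0.591, *Lor* 10.7% ± 0.443 and *Arg1* 10.8% ± 1.09. *Trp63*, the transcription factor of basal keratinocytes, had 54.6% ± 1.51, *Notch1* 55.2% ± 4.50, *Cd44* 55.5% ± 3.60 and *Lama3* 63.8% ± 7.94. *Sprr3*, *Slpi*, *Lor* and *Arg1* were higher in the outer cells with large outlines described next. *Trp63*, *Notch1*, *Cd44* and *Lama3* were higher in the inner cells with small outlines. The part of outline size in these shares was not tested.

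To order the cells, each suprabasal cell was given its distance to the nearest basal cell of its section. The rule did not use position, although the basal cells were picked with the same 4 genes. Within each section the cells were ranked by this distance and divided into 3 groups of equal size, called near, middle and far cells. The median distance was 11 to 12.5 µm in near cells and 41.1 to 66.4 µm in far cells, and the edges of the middle group lay at 15.4 to 18.0 µm and 28.6 to 40.04 µm. The map of the sections shows near cells next to the basal layer and far cells on its outer side. In places far cells lie in pieces of epithelium with few basal cells beside them, as in the lower left of sections 1 and 7 and in the separate strip of section 6, and there distance does not measure the layer. Section 6 also had the largest median distance of far cells, 66.4 µm, and held 213 suprabasal cells more than 100 µm from a basal cell, against 24 to 60 in the other sections.

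**Figure D3:**
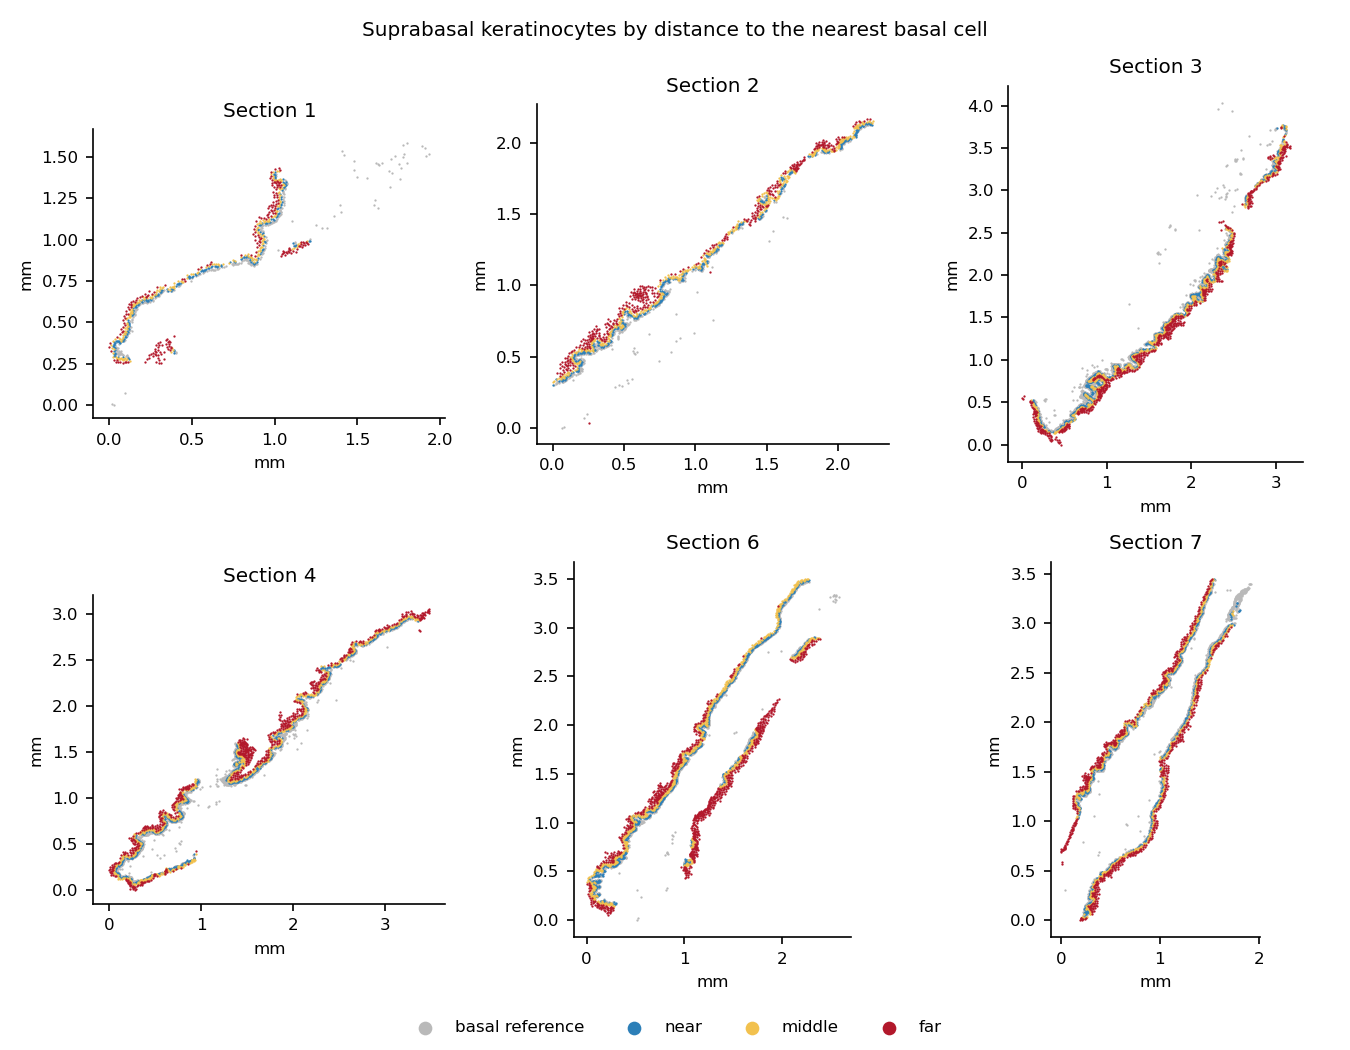
Position of suprabasal keratinocytes in the 6 sections that hold them, in mm from the lower left corner of the cells drawn, coloured as near, middle or far by their distance to the nearest basal cell, with the basal cells in grey. Along most of the epithelium the 3 groups form bands with the far cells outermost, while stretches in sections 1, 6 and 7 hold far cells with few basal cells beside them.

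Far cells were larger outlines with more transcripts, a smaller part of them over the nucleus. The median cell area of near cells was 60.5 µm² in the lowest section, 67.8 µm² in the median and 76.8 µm² in the highest, and that of far cells 244.5, 277.9 and 341.8 µm². The means were 67.2 µm² ± 5.75 and 284.9 µm² ± 37.9 (SD, n = 6), and far cells were larger in 6 of 6 sections (exact sign-flip permutation test, two-sided, p = 0.03125, the smallest the 6 sections allow, adjusted p = 0.0417 over 4 measures). Far cells held 393 ± 143 transcripts of the 324 other genes per cell in the median and near cells 149 ± 23.5, again with 6 of 6 sections higher (exact permutation p = 0.03125, adjusted p = 0.0417). The difference ranged from 26.5 transcripts in section 1 to 402.5 in section 3. The share of these transcripts over the nucleus was 12.9% ± 0.493 in far cells and 35.3% ± 2.26 in near cells and was lower in far cells in 6 of 6 sections (exact permutation p = 0.03125, adjusted p = 0.0417). The nucleus area was 22.7 µm² ± 4.27 in far cells and 22.2 µm² ± 2.24 in near cells, and far cells were higher in 3 of 6 sections (exact permutation p = 0.719). The share over the nucleus depends on the area of the outline, so its test is not independent of that on cell area. The part of outline size in this share was not tested. Since area grew more than transcripts, the transcripts per µm² of cell outline were lower in far cells in 6 of 6 sections, with 1.01 to 2.07 against 2.18 to 2.79 in near cells, a value computed after the others were seen and given with no test.

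Most genes differed between far and near cells. Transcripts were summed over the near and over the far cells of each section and compared with edgeR's quasi-likelihood test, with the section as a block and TMM scaling. Of the 324 genes, 184 had enough counts to be tested and 140 had not. At an adjusted p under 0.05, 156 differed (84.8%), 69 of them higher in far cells (37.5%) and 87 higher in near cells (47.3%). The fold was over 2 for 53 of the 69 and for 69 of the 87, and over 8 for 24 and 9. With so much of the panel moving, the zero of the comparison rests on the scaling. Scaled by library size, which compares shares of all transcripts, the median gene stood at -1.59 instead of -0.22 on the log2 scale, and 39 genes were higher in far and 129 higher in near cells, that is 23.2% of calls in the direction of far cells instead of 44.2% (56.4% with DESeq2). The 39 were all among the 69 and the 87 all among the 129, while 15 genes turned from higher in far to higher in near cells. The count per cell mostly went the same way as TMM: of the 69 genes, 52 had more transcripts per far than per near cell in every section, and of the 87 genes, 81 had fewer in every section. The groups hold like numbers of cells, and in most sections TMM brought their scaled library sizes close to each other. The count per cell is therefore nearly the same comparison as TMM and cannot decide between the scalings. All 24 genes named next kept their direction under both scalings and under DESeq2.

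The 12 genes that rose most in far cells are given by role, starting with enzymes and genes of lipid handling. *Arg1* had 531 to 2961 CPM in near cells (median 963) and 30237 to 48447 in far cells (median 37823), so that the groups did not come close. Its difference was 6.51 on the log2 scale (SE 0.34, edgeR adjusted p = 1.17e-08), the largest of the 184 genes, and it went from a median of 0.161 to 16.1 transcripts per cell. *Cidea*, which encodes a protein of lipid droplets known from brown fat and sebocytes, had 101 to 499 CPM in near cells (median 160.5) and 3855 to 7683 in far cells (median 5031), a difference of 6.14 (SE 0.22, adjusted p = 5.36e-10). *Gm2a*, the activator protein for the breakdown of gangliosides, had 1324 to 1782 CPM in near cells (median 1669) and 9746 to 16603 in far cells (median 15333), a difference of 4.51 (SE 0.14, adjusted p = 4.44e-10). In all 3 genes the lowest far section lay above the highest near section. *Cyp26b1*, which breaks down retinoic acid, was at 0 in the near cells of 1 section and at up to 307 CPM in the others, against 963 to 1917 CPM in far cells, a difference of 4.95 (SE 0.31, adjusted p = 4.62e-08).

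Envelope genes rose together. *Hrnr*, which encodes hornerin, a relative of filaggrin, had 282 to 1594 CPM in near cells (median 877) and 9640.0 to 26668 in far cells (median 15222), a difference of 5.55 (SE 0.24, edgeR adjusted p = 1.93e-09). *Flg*, which encodes filaggrin, the keratin-bundling protein of the granular layer, had 0 to 107 CPM in near cells (median 15.4) and 135 to 797 in far cells (median 258), a difference of 5.44 (SE 0.49, adjusted p = 1.19e-06). The estimate for *Flg* rests on few transcripts in near cells and was 4.82 without section 4 and 6.01 without section 7. All 4 tested genes of the envelope and filaggrin list (*Lor*, *Flg*, *Hrnr* and *Cnfn*, which encodes cornifelin) were higher in far cells under both scalings, with a median of 4.83 against -0.22 over all genes tested, while *Ivl* and *Flg2* had too few counts. *Lor* went from 7360.1 to 14242 CPM in near cells (median 13049) to 76856 to 101720.4 in far cells (median 85231). Over all 184 genes tested, 37.5% were higher in far cells with TMM, and 39 genes with library size. All 5 *Sprr* genes were higher in far cells with TMM, with a median of 3.57. Among them *Sprr2d* rose most, by 4.24 (SE 0.51, adjusted p = 1.20e-05), from 428 to 2842 CPM in near cells (median 1359) to 2303 to 21291 in far cells (median 11625), and its lowest far section lay below its highest near section. *Sprr3* rose by 3.57 (SE 0.12, adjusted p = 4.44e-10), *Sprr1a* by 3.99, and *Sprr2a3* and *Sprr1b* by 1.86 and 1.83, of which *Sprr1b* did not pass with library size and was lower in the far cells of section 1, at -0.26 with TMM.

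Protease inhibitors and 2 cytokines of the interleukin 1 family were also among the genes higher in far cells. *Slpi* had 8472 to 18620.1 CPM in near cells (median 14449) and 105127 to 121026 in far cells (median 116432), a difference of 4.44 (SE 0.17, edgeR adjusted p = 8.94e-10). *Cstdc5*, a gene of the cystatin domain family of cysteine protease inhibitors, had 169 to 413 CPM in near cells (median 294) and 2547 to 8049 in far cells (median 4498), a difference of 5.44 (SE 0.18, adjusted p = 4.44e-10). All 5 tested protease inhibitors were higher in far cells with TMM, with a median of 2.25, beside 37.5% of all genes tested. With library size 3 were, beside 39 of all 184 genes, while *Serpinb2* turned to higher in near cells and *Serpinb3b* did not pass. *Il1f8*, an interleukin 36 cytokine of epithelia, had 247 to 1249 CPM in near cells (median 848) and 9573 to 17536 in far cells (median 14152), a difference of 5.54 (SE 0.25, adjusted p = 2.32e-09). *Il1f6*, another interleukin 36 cytokine, had 838 to 2926 CPM in near cells (median 2170.2) and 12438 to 25729 in far cells (median 21716), a difference of 4.86 (SE 0.32, adjusted p = 8.25e-08). The other 3 of the 5 tested genes of that list, *Il1rn*, *Il1r1* and *Il1rap*, did not pass with TMM and were higher in near cells with library size, so that 2 of 5 were higher in far cells beside 37.5% of all genes tested.

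Among the keratins *Krt75*, a keratin of the hair follicle companion layer and of tongue papillae, was the only one in the leading 12. It had 23.5 to 107 CPM in near cells (median 38.0) and 111 to 1072 in far cells (median 424), a difference of 4.78 (SE 0.40, edgeR adjusted p = 6.34e-07). *Krt78* was far more abundant and rose by 4.08 (SE 0.13, adjusted p = 4.44e-10), from 9222 to 16590.0 CPM in near cells (median 12059.6) to 61526 to 90561 in far cells (median 83536). Of the 3 stress keratins, *Krt17* was higher in far cells with TMM, beside 37.5% of all genes tested, and higher in near cells with library size. *Krt6a* had a difference of 0.40 (edgeR adjusted p = 0.151) with TMM and was higher in near cells with library size. *Krt16* had 1.21 (adjusted p = 0.0590) with TMM and passed with neither scaling. *Krt5*, the keratin of basal cells, was lower in far cells by both scalings, with -0.96 (SE 0.20, adjusted p = 9.79e-04) under TMM.

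The 12 genes most reduced in far cells had several roles. *Mt3*, the metallothionein named above, had 1094 to 1873 CPM in near cells (median 1424) and 0 to 21.2 in far cells (median 13.3), a difference of -5.29 on the log2 scale (SE 0.28, edgeR adjusted p = 1.33e-08). *Dsc3*, the desmocollin of the lower layers, had 13807 to 20501 CPM in near cells (median 17025) and 252 to 751 in far cells (median 359), a difference of -4.09 (SE 0.18, adjusted p = 1.93e-09). *Cd44*, the hyaluronan receptor, had 10111 to 14005 CPM in near cells (median 12363) and 313 to 490.3 in far cells (median 335), a difference of -3.71 (SE 0.14, adjusted p = 5.45e-10). For these 3 genes, too, near and far sections were far apart. *Itga6*, the integrin partner of *Itgb4*, fell by 3.37 (SE 0.19, adjusted p = 2.23e-08), from 889.6 to 1748 CPM in near cells (median 1121) to 27.1 to 88.6 in far cells (median 40.4). *Lama3*, a chain of the basement membrane laminin that basal cells bind, fell by 3.94 (SE 0.25, adjusted p = 4.64e-08), from 1176 to 1594 CPM (median 1428) to 14.8 to 66.4 (median 36.6). *Cdh3*, the P-cadherin of basal keratinocytes, fell by 2.78 (SE 0.28, adjusted p = 2.77e-06), from 487 to 1350.2 CPM (median 848) to 17.7 to 138 (median 33.1). Near cells thus held transcripts of other anchoring genes, while the rule keeps *Itgb4* and *Col17a1* at no more than 1 transcript.

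*Notch1*, the receptor that drives keratinocytes out of the basal state, fell by 3.05 (SE 0.12, edgeR adjusted p = 8.94e-10), from 3710.4 to 5458 CPM in near cells (median 4617) to 156 to 274 in far cells (median 231). Its ligand *Jag1* fell by 1.67, and *Notch2* was higher in far cells with TMM and higher in near cells with library size. *Igfbp2*, a binding protein of insulin-like growth factors, fell by 3.81 (SE 0.17, adjusted p = 1.95e-09), from 3826 to 6546 CPM (median 5982) to 86.0 to 286 (median 153). *Mmp14*, a metalloproteinase of the cell membrane, fell by 3.25 (SE 0.25, adjusted p = 2.70e-07), from 1325 to 2036 CPM (median 1903) to 38.3 to 134 (median 70.0). Regulators of growth were among the 12 as well. *Id3*, an inhibitor of transcription factors of the helix-loop-helix class, fell by 2.69 (SE 0.24, adjusted p = 1.08e-06), from 785 to 1798 CPM (median 1173) to 41.5 to 111 (median 79.2). *Lrig1*, which holds back EGF receptors and marks some epithelial stem cells, fell by 2.64 (SE 0.26, adjusted p = 2.17e-06), from 714 to 1041 CPM (median 935) to 32.4 to 111 (median 56.9). *Itgax*, an integrin of dendritic cells and macrophages, fell by 3.04 (SE 0.46, adjusted p = 8.04e-05), from 107 to 323 CPM (median 247) to 2.95 to 35.3 (median 8.36). Without section 7 the difference was -3.75.

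**Figure D4:**
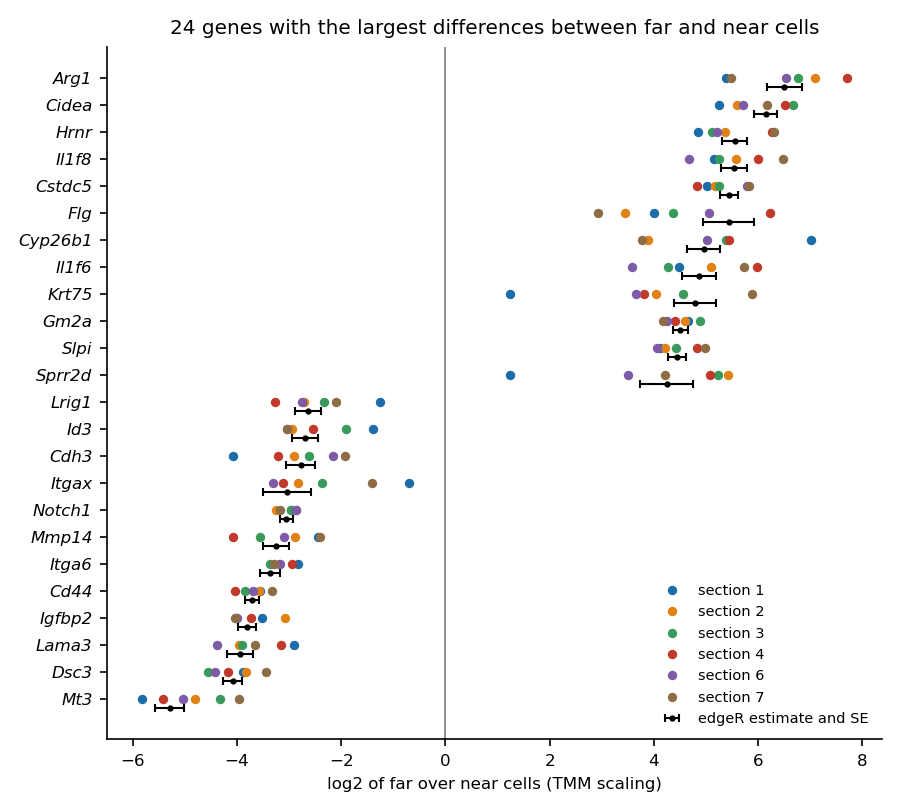
Difference between far and near suprabasal cells on the log2 scale with TMM scaling, for the 12 genes with the largest differences in each direction, with a coloured point per section and, in black, the edgeR estimate with its SE. The genes were chosen among those with the same sign in all 6 sections, and the points spread most for *Krt75* and *Sprr2d*, where section 1 lies nearest to 0.

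The other fixed lists are given by their counts, beside 37.5% of all tested genes higher in far and 47.3% higher in near cells with TMM. With library size, 39 of all 184 genes were higher in far and 129 in near cells. Of 10 basal markers, 9 were higher in near cells with both scalings (median -2.36), and *Col7a1* was higher in far cells with TMM and did not pass with library size. Of the other 11 suprabasal markers tested, 8 were higher in far and 1 in near cells with TMM (median 1.38) and 4 in far and 5 in near cells with library size (median 0.01), and *Dsc2* was higher in near cells with both. Desmosomal cadherins went both ways: *Dsc1* was higher in far cells with both scalings, *Dsg1a* and *Dsg1b* with TMM but the reverse with library size, and *Dsc2*, *Dsc3* and *Dsg3* were higher in near cells with both. Of 7 tested cell cycle genes, 6 were higher in near cells with TMM and all 7 with library size, for example *Top2a*, which untangles DNA at mitosis, with 533 to 1430 CPM in near and 22.1 to 140.3 in far cells. Of 6 genes of the EGF receptor family, the ligands *Areg*, *Hbegf* and *Tgfa* were higher in far cells with both scalings, *Erbb3* with TMM but the reverse with library size, and *Egfr* and *Erbb2* did not pass with TMM and were higher in near cells with library size. *Tgfa* rose by 3.53 (SE 0.12, edgeR adjusted p = 4.44e-10), from 388 to 892 CPM in near cells (median 580.1) to 2138 to 4096 in far cells (median 2630.0).

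Of 8 differentiation transcription factors, *Dlx3*, *Cebpb* and *Rora* were higher in far cells with both scalings, *Klf4* with TMM alone, *Trp63* and *Cebpg* were higher in near cells with both, and *Grhl3* and *Barx2* did not pass with TMM and were higher in near cells with library size. *Trp63* fell by 2.59 (SE 0.15, edgeR adjusted p = 2.86e-08), from 6170.1 to 8099 CPM in near cells (median 7176) to 314 to 772 in far cells (median 450.4). Of 5 tested immediate early genes, *Jun*, a subunit of AP-1, was higher in far cells with both scalings, by 3.66 (SE 0.14, adjusted p = 8.94e-10), and *Fos* and *Junb* with TMM alone. *Id3* was higher in near cells with both, and *Id1* did not pass with TMM and was higher in near cells with library size. The AP-1 letters shown for the *Sprr* genes were present before the start of 9 of the 53 matched genes higher in far cells (17.0%) and of 7 of the 62 higher in near cells (11.3%), a description with no test. *Sox2* was higher in near cells with both scalings, by -0.96 (SE 0.11, adjusted p = 8.45e-06), while *Pitx1* had -0.11 (adjusted p = 0.511) with TMM and was higher in near cells with library size. Among genes of retinoic acid handling, *Cyp26b1* was higher in far cells with both scalings, and *Crabp2* and the receptor gene *Rxra* did not pass with TMM and were higher in near cells with library size. Of 6 tested lipid genes, *Gm2a* and *Hpgd*, which breaks down prostaglandins, were higher in far cells with both, *Elovl6*, *Scd2* and *Ppara* were higher in near cells with both, and *Fabp5* had -0.01 (adjusted p = 0.923) with TMM and was higher in near cells with library size.

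Genes known from other cells also differed by position. The 9 immune markers summed to 4572 to 6223 CPM in near and 2247 to 3831 in far cells. Of the 8 tested, *Cd74*, *Cd52*, *Ctss*, *Csf1r* and *Cd207* were higher in near cells and *Cd68*, *Lyz2* and *Cd3g* in far cells, with both scalings. Over all 184 genes tested, 37.5% were higher in far and 47.3% in near cells with TMM, and 39 and 129 genes with library size. *Cd207* is the langerin of Langerhans cells, which sit among the lower suprabasal cells, and had 952 to 1364 CPM in near cells and 44.3 to 268 in far cells. *Cd68*, a lysosomal protein best known from macrophages, had 194 to 392.5 CPM in near cells and 1531 to 2479.9 in far cells, while *C1qa* of macrophages had too few counts to be tested. *Alas2* of red cell precursors was among the genes higher in far cells, with 15.4 to 155 CPM in near and 243 to 376 in far cells, as were *Cd3g* of T cells, with 7.38 to 178 and 108 to 268 CPM, and *Des* of muscle, with 132 to 418 and 289 to 1528 CPM. Calls of codes that belong to no gene, all such codes summed, numbered 371 in near cells and 433 in far cells on the scale of CPM, relative to all transcripts of the group, with 238 to 459 and 345 to 599 over sections. TMM, which scaled the gene calls, multiplied library sizes by 1.51 to 1.81 in near and by 0.587 to 0.706 in far cells. A level equal in CPM therefore stands higher in far cells with TMM. The part of calls without a gene and of other cells in these differences was not tested. With only the cells that hold no transcript of another lineage, 148 genes were tested. Of these, 57 were higher in far and 75 in near cells, and 1 called gene turned its direction. The markers of those lineages, among them *Cd68*, *Cd3g* and *Des*, are at 0 in such cells by choice. These counts therefore cannot bear on the differences of those markers.

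Between near and far cells the levels of many genes did not change steadily. Averaged over the 6 sections, *Dsc3* fell from 23553 CPM within 10 µm of a basal cell to 2995 CPM at 20 to 30 µm and 339 CPM at 40 to 60 µm, and *Dsc2* from 33462 to 19336 and 3617 CPM. *Dsc1* instead climbed from 10797 CPM within 10 µm to 40502 CPM at 20 to 30 µm and went down to 17935 CPM at 60 to 100 µm, so *Dsc2* and *Dsc3* were highest next to the basal layer and *Dsc1* farther out. *Crabp2* was highest between 10 and 30 µm, with 31373 and 30670.2 CPM, against 20019.9 within 10 µm and 6994 at 60 to 100 µm. *Sprr1b* was highest between 20 and 40 µm, with 22331 and 22354 CPM, but in section 1 it was highest at 10 to 20 µm, with 18890.3 CPM, and at 4097 CPM at 40 to 60 µm, while *Sprr3* climbed from 13280.0 within 10 µm to 121862 CPM at 40 to 60 µm. *Mt4* fell from 111968 CPM within 10 µm to 5962 at 60 to 100 µm, and *Gja1* from 36978 to 5204 CPM. *Gm2a* was flat close to the basal layer and climbed farther out: it was at 1656 CPM within 10 µm, 1634 at 10 to 20 µm and 2937 at 20 to 30 µm, and reached 20767 CPM at 60 to 100 µm. These patterns were read from the averages and have no test, and the bin at 60 to 100 µm holds 20 cells in section 1. As CPM they are shares of transcripts, and far cells held more transcripts per cell, so the peaks and falls rest on that scaling. *Krt4* and *Tgm3* themselves, which chose the cells, went from 13.7 and 7.67 transcripts per cell within 10 µm to 70.8 and 34.9 at 40 to 60 µm.

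**Figure D5:**
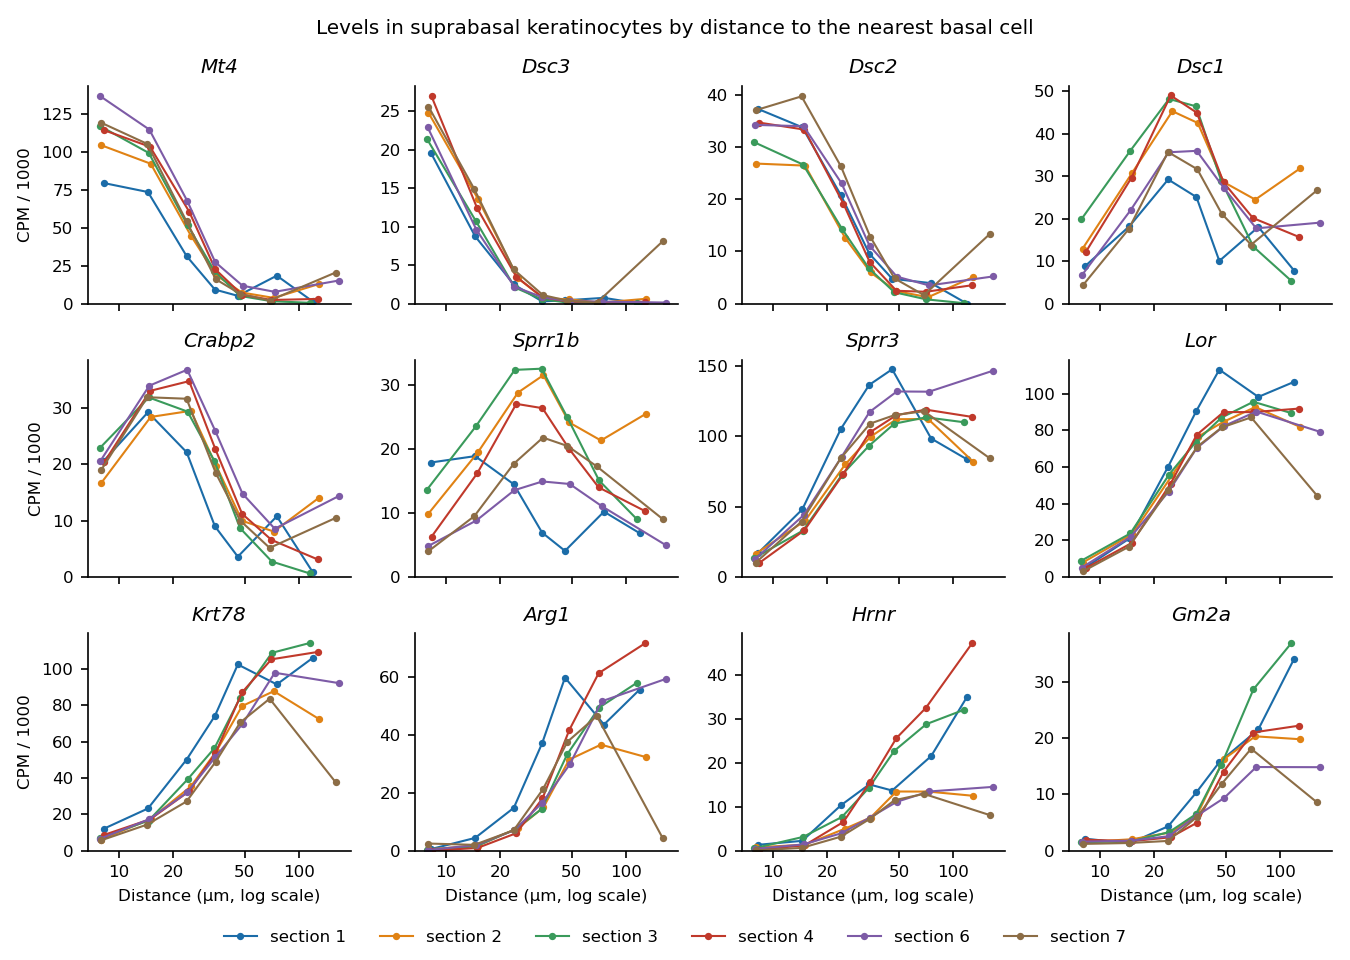
Levels of 12 genes in suprabasal keratinocytes, in CPM divided by 1000, against the median distance to the nearest basal cell in each distance bin, on a log axis in µm, with a line per section. *Mt4*, *Dsc3* and *Dsc2* fall with distance, *Dsc1*, *Crabp2* and *Sprr1b* peak between (*Sprr1b* of section 1 already at 10 to 20 µm), and the remaining genes climb to 40 µm or beyond, with section 7 dropping back past 100 µm for several genes.

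Set against basal cells of the same section, suprabasal cells had 35 genes at least 2-fold higher in every section (16.5% of 212 compared) and 101 at least 2-fold lower (47.6%). The rule separates these cells, so this is a description. The levels are shares of all transcripts without TMM scaling, so the counts and folds in each direction rest on that scaling. The 10 with the largest median fold were *Il1f6*, *Arg1*, *Hrnr*, *Il1f8*, *Cidea*, *Slpi*, *Lor*, *Krt78*, *Sprr3* and *Cnfn*, of which *Slpi* had 77019 CPM ± 5746 in suprabasal and 722 ± 247 in basal cells (SD, n = 6), and *Il1f6* 13620 ± 2276 and 63.6 ± 50.3. The 10 most reduced were *Tnc*, *Itga3*, *Lgr6*, *Dsg2*, *Vwf*, *Pecam1*, *Wnt10a*, *Timp3*, *Efemp1* and *Thbs1*. They include *Itga3*, an integrin of basal cells, with 66.5 CPM ± 41.1 in suprabasal and 5043 ± 846 in basal cells, and *Tnc*, the matrix protein tenascin C, with 37.4 ± 18.9 and 5776 ± 2569. *Vwf* and *Pecam1* are endothelial, and vascular markers summed to 1187 to 7717 CPM in the basal cells. The limits that picked the basal cells ask for no basal keratin. Whether these transcripts came from neighbours or from cells of other types among the basal cells was not tested. All 9 cell cycle genes and all 10 basal markers were at least 2-fold lower in suprabasal cells. *Cd44* and *Notch1*, high in near cells, were lower in suprabasal cells as a whole, at 3588 ± 617 against 11217 ± 828 CPM and 1398 ± 225 against 7865 ± 902.

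The same rule picked few cells on the skin slides. It was met by 76 of 78962 cells of male skin (0.0962%, 95% exact interval 0.0758 to 0.120), by 421 of 161614 of female skin (0.260%, 0.236 to 0.287) and by 154 of 123434 of the slide with wounds (0.125%, 0.106 to 0.146), against 17.0% (16.7 to 17.3) of buccal cells. The intervals cover counting error only, 1 slide stands for each group, and the skin slides mix Control and PITX1+ sections. Over the sections of a slide the share ran from 0% to 0.173% in male skin and from 0% to 0.496% in female skin. It ran from 0.0579% to 0.222% on the slide with wounds and from 0% to 22.7% on the buccal slide. The cells were not alike. *Krt4* was 64.9% of the pair on the buccal slide, 70.6% on the slide with wounds, 20.4% in female and 4.61% in male skin. The leading other genes were *Krt17*, *Lrrc15*, *Dlx3* and *Dsg4* in male skin, *Krt1*, *Krt17* and *Fabp5* in female skin and *Krt17*, *Krt16* and *Krt1* on the slide with wounds, where buccal cells were led by *Sprr3*, *Slpi*, *Lor* and *Krt78*. *Dsg4* and *Lrrc15* are known from the hair shaft and its follicle. In 93.4% of the male and in 52.0% of the female skin cells the rule thus rested on *Tgm3* without *Krt4*, against 18.8% on the slide with wounds, and these cells were compared no further.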

How the data were processed

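The authors deposited, for each of the 4 slides, the instrument's tables of cells and of decoded transcripts. The deposited cells table gives transcript counts and control calls per cell without normalization, and positions and areas (other quantities, in µm and µm²). In the deposited table of transcripts, every row carries the decoding quality as a score, the cell it was assigned to, whether it overlapped a nucleus, and its position. Cell and nucleus outlines were not used. The software version and segmentation settings are not given in the sources used here.

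Per cell, the transcripts scoring 20 or more were summed by gene, and their sums equalled the deposited counts in 100% of cells. Library sizes and CPM leave out the 4 rule genes. Sums per section and group held 28029 to 135593 transcripts for near and 45163 to 406425 for far cells, so section 1 has the widest counting error. Near and far cells were compared with edgeR 4.0.16 (R 4.3.3; filterByExpr, TMM, glmQLFit, glmQLFTest, section as block, Benjamini-Hochberg over the genes tested, threshold 0.05) and with DESeq2 1.42.0 as an alternative. Cell measures were compared with exact sign-flip tests (Python 3.11.15, scipy 1.17.1), with the 4 measures adjusted together. Tested on simulated data with 200 of the genes changed, edgeR called 100% of genes changed by 1 or 2 on the log2 scale, 28.6% of those changed by 0.5 and 1.43% of unchanged ones. With 40 genes changed it called 100% of those changed by 2, 80.0% of the 5 changed by 1, 54.5% of those changed by 0.5 and 1.27% of unchanged ones. The largest change put in was 2 on the log2 scale, and the changed genes and their signs were drawn at random. A joint rise of the most abundant genes, as between near and far cells, was thus not simulated. In the real comparison 24 genes were over 8-fold higher in far cells and 9 in near cells. The share of unchanged genes called beside differences of that size was not tested. No doublet caller was run, and an outline can take in transcripts of a neighbour. Matches to RefSeq promoters were by symbol.

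Genes named are the 12 largest differences in each direction between far and near cells among those past the threshold with the same sign in every section, the 20 highest mean levels, the 10 largest median folds in each direction against basal cells, and examples from fixed lists. The members and lists were chosen with earlier results of these data known. Alternatives were library size, DESeq2, all genes unfiltered, only nuclear transcripts, any quality, distance bands of 25 and 50 µm, a basal limit of 3, stricter rules, rule genes kept, cells without other lineages, no section block and each section left out. Cells thinned to 50 transcripts and far against middle cells were added after seeing the data. The result for 1 further gene of the lists is not reported here.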

Additional observations from a re-analysis of the deposited data

Results flagged for a closer look

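Of 52 sets of section values examined, among them shares, cell measures and the levels and differences of named genes, 2 held a section that stood apart from the others by the size of its gap (Dixon's ratio), where chance gives about 1 set in 20. Both were section 7. *Lor* had 50824 CPM in the suprabasal cells of section 7 and 61665 to 63867 in the other 5 sections. *Krt78* had 39006 CPM in section 7 and 52987 to 56024 in the others.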

How the results depend on the processing

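Between far and near cells, 69 genes were higher in far cells, against 39 with library size and 115 with DESeq2, which tested 324 genes instead of 184. The count of genes higher in near cells stayed within 1.5 times of 87 under all alternatives run, and leaving out 1 section gave 63 to 74 and 85 to 93. The 24 genes named for far against near cells gave 470 values over 20 alternatives, all in the same direction and past the threshold (highest adjusted p of edgeR or DESeq2 0.0416). Of these, leaving out 1 section moved 2 by over 1.5 times, *Flg* to 4.82 without section 4 and *Itgax* to -3.75 without section 7. Far against middle cells, the cell measures missed the threshold, with differences of 146 µm² in cell area and -8.15 percentage points in the share over the nucleus (adjusted p = 0.0625 by exact permutation for both) and of 122 transcripts (adjusted p = 0.0833). Leaving out 1 section gave 208 to 226 µm², -23.1 to -21.9 points and 213 to 289 transcripts, where 5 sections cannot pass (smallest exact p 0.0625). The difference in nucleus area, 0.557 µm² and past no threshold, was -0.666 in fixed distance bands, -1.13 against middle cells and -0.167 to 1.92 with 1 section left out. Against basal cells, 65 of 177 genes compared, instead of 101 of 212, were at least 2-fold lower with nuclear transcripts alone. With 20 transcripts of *Krt4* and *Tgm3* asked for, the rule was met by 14.3% of buccal cells and by 0.00380%, 0.0439% and 0.0138% of cells of male, female and wounded skin. The cause of these shifts was not tested. No paired analysis was possible because each group of the labels is 1 slide. Within the buccal slide the section is a block, and without it 63 and 85 genes were called. Among sections with suprabasal cells, section 1 had the fewest transcripts in both groups compared.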
